A study of Mus musculus with 8 samples.

Results

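AK005187 and AK047380 are 2 long noncoding RNAs (lncRNAs) of mouse chromosome 6 whose array probes gave a clear signal in the brainstem of C57BL/6 mice and none well above background in the brainstem of DBA/1 mice. They were selected on that strain difference, so it is described below without a test. They are 2 of the 60804 probes whose normalized values the authors deposited, and 2 of the 32897 probes that could be tested here. Each is represented by 1 probe, and each probe by 1 spot per array. Their raw spot and background signals, flags, place within each array, strain difference and chromosomal neighbours are given.

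Each array held the brainstem RNA of 1 mouse, with 4 mice of the strain DBA/1 and 4 of C57BL/6, compared because DBA/1 mice are a model of sound-induced seizures with respiratory arrest. All 8 mice were males of 5 weeks. Per the methods, the substrains were DBA/1JNCrlj and C57BL/6JNifdc, no mouse was exposed to sound, and the whole brainstem was taken under isoflurane. RNA was freed of ribosomal RNA, amplified with random primers and labeled with Cy3 for a one-color array. Both strains are inbred, so the 4 mice of a strain sample the spread between animals of 1 genotype. Bulk RNA of a whole region cannot tell fewer cells of a type from less RNA per cell.

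A lncRNA is a transcript without a recognized coding sequence, and many are known from 1 cloned cDNA. Such RNAs are sorted by their place relative to coding genes, since transcripts that overlap an exon, run antisense or lie between genes are read and studied differently. AK005187 is listed as exon sense-overlapping with Tra2a, which encodes a splicing regulator of the transformer-2 family. AK047380 is listed as intergenic. It lies between Mpp6, the gene of a membrane-associated scaffold protein, and Gsdme, the gene of the pore-forming protein gasdermin E, formerly called Dfna5.

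In GRCm38, AK005187 (transcript uc009bwo.2) runs on the minus strand at chr6:49260243-49264030. It lies inside Tra2a, which RefSeq places at chr6:49243921-49264248 on the same strand. Its upstream end is 218 bases from the upstream end of the gene. AK047380 runs on the plus strand at chr6:50200162-50203119. Its start is 1007 bases beyond the end of Mpp6 (chr6:50110228-50199154, plus strand), and its end is 4281 bases from Gsdme (chr6:50207401-50263857, minus strand). The members are 936 kb apart. RefSeq has 9 protein-coding genes within 300 kb of AK005187 and 3 within 300 kb of AK047380. None of these 12 genes is named for a probe in the tables used here, so the coding genes beside the members are not described.

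The listed RNA length of each member equals its genomic span, 3788 bases for AK005187 and 2958 bases for AK047380, so the list by itself gives neither an intron. Whether the RNAs have one was not tested. Equal length and span were found for 131 of 750 listed lncRNA probes (17.5%). Both are long for that list, whose median length was 1357 bases, with 92.5% of listed lncRNA probes no longer than AK005187 and 82.7% no longer than AK047380.

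The probe sequences are shown because every value rests on 1 spot of 60 bases, and those of the nearest listed neighbours are shown beside them because their values differ. Capitals mark the longest run of bases that the members' probes share.
AK005187: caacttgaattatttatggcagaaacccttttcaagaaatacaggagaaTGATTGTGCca
AK047380: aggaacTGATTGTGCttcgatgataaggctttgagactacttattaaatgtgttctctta
AK033721: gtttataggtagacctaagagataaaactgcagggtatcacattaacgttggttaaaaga
AK009658: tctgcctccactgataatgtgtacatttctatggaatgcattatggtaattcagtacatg

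The shared run, TGATTGTGC, has 9 bases and stands at positions 50 to 58 of the AK005187 probe and 7 to 15 of the AK047380 probe, counted from the 5′ end. Searched on both strands, it was found in 3 of 1183 listed probes (0.254%), and the third probe is that of Cul1, the scaffold of a ubiquitin ligase, also on chromosome 6. The GC content was 35% in each member's probe, against a median of 40% over the listed probes, of which 2.62% had a lower one. The polyadenylation signal AATAAA was in neither probe as printed, and its variant ATTAAA was in that of AK047380, as in 5.83% of listed probes. No cross-hybridization is listed for either probe. The list places the AK047380 probe at 50203056 to 50203119, at the very end of the transcript. For AK005187 the listed interval, 49260258 to 49263837, is 3580 bases, far longer than the probe, so the probe's place within the RNA, and whether it crosses an unlisted intron, are unclear. The mouse reference genome is that of C57BL/6J, and no DBA/1 genome sequence was used here.

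The slide that carried all 8 arrays had a row of C57BL/6 mice and a row of DBA/1 mice, so row and strain cannot be told apart. Between 32354 and 35074 probes were well above background on a C57BL/6 array and between 28671 and 33175 on a DBA/1 array. By the 75th percentile of the processed intensity, the DBA/1 arrays (50.9 to 77.7) were mostly dimmer than those of C57BL/6 (74.7 to 114), with an overlap. Of 12 genes listed as brainstem markers, 2 are named for a probe, and both were among the probes the study picked on these arrays. Tph2, the serotonin-synthesis enzyme of raphe neurons, was well above background on all 8 arrays, at a mean normalized log2 signal of 11.40 ± 0.16 in DBA/1 and 9.72 ± 0.54 in C57BL/6 (SD, n = 4 each). Slc6a4, the serotonin transporter, was well above background on all 4 DBA/1 arrays and 1 of the C57BL/6 arrays, at 4.64 ± 0.40 in DBA/1 and 3.04 ± 0.50 in C57BL/6 (SD, n = 4 each). Both markers, picked by the study, were thus higher in DBA/1, and their part in the members' values was not tested.

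AK005187 gave a bright spot in all 4 C57BL/6 mice. The median signal over the pixels of the spot, in the scanner's arbitrary units, was 2124.5, 1696.5, 1957 and 2091 in C57BL/6 mice 1 to 4, over a local background of 14, 13, 12.5 and 13. In DBA/1 mice 1 to 4 the spot gave 25, 18, 15 and 15, over a local background of 14, 14, 13 and 12. The lowest C57BL/6 spot thus stood far above the highest DBA/1 spot, and the DBA/1 spots exceeded their own background by 11, 4, 2 and 3 units.

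The processed intensity, which Feature Extraction corrects for background and for trends across the array, was 1908, 1856, 1957 and 2344 for AK005187 in the C57BL/6 mice. It was 3.38, 2.18, 1.87 and 2.07 in the DBA/1 mice. The scanner software's own error of these intensities was 191, 186, 196 and 234 in the C57BL/6 mice and 3.07, 2.11, 1.87 and 2.08 in the DBA/1 mice, where the error was thus about as large as the intensity. Over the 4 C57BL/6 mice the mean was 2016 ± 223 (SD, n = 4).

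AK047380 also gave a clear spot in all 4 C57BL/6 mice. Its median spot signal was 358, 414, 483 and 701 in C57BL/6 mice 1 to 4, over a local background of 15, 14, 13 and 14. In DBA/1 mice 1 to 4 it was 27, 23, 17 and 18, over a local background of 14, 13, 13 and 13. All 4 C57BL/6 spots were at least 23.9 times their background, and the DBA/1 spots were 1.31 to 1.93 times theirs.

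The processed intensity of AK047380 was 355, 399, 443 and 675 in the C57BL/6 mice and 2.86, 6.78, 1.95 and 3.06 in the DBA/1 mice. Over the C57BL/6 mice the mean was 468 ± 142 (SD, n = 4), and this SD was 30.4% of the mean, a larger share than for AK005187. By processed intensity C57BL/6 mouse 4 was the brightest for both members, and its array also had the highest 75th percentile. In DBA/1 mouse 2 the software's error was 28.7% of the intensity, against 70.6% to 100.5% in the other DBA/1 mice.

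**Figure D1:**
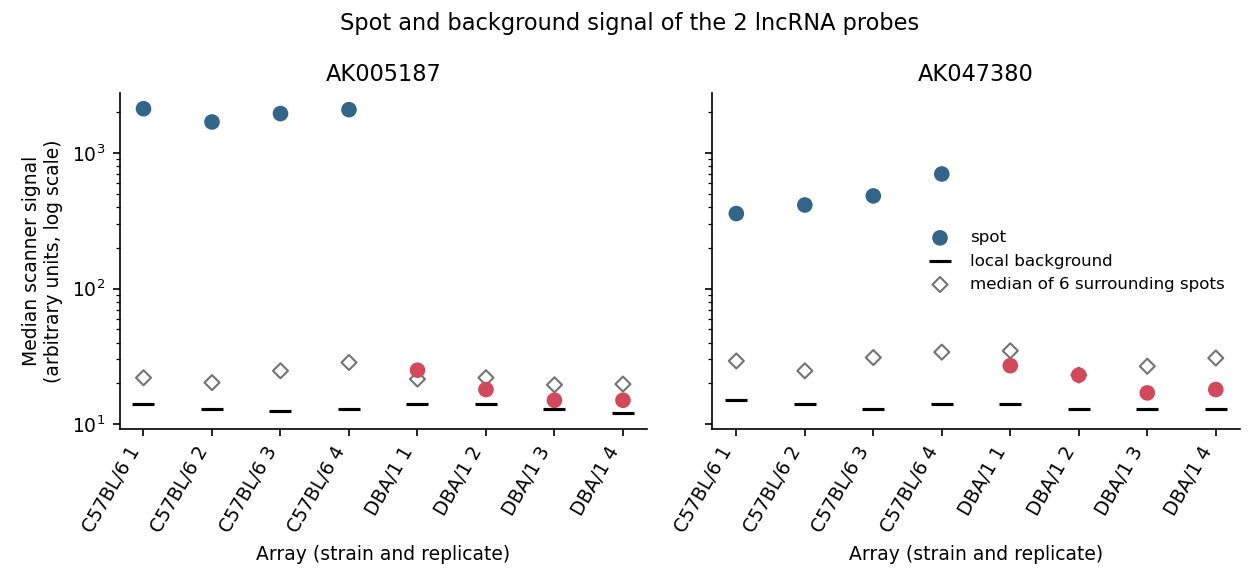
Median scanner signal of the spot (filled circles, blue for C57BL/6 and red for DBA/1), of its local background (black bars) and of the 6 nearest spots (open diamonds, their median), on a log axis in arbitrary units, for each of the 8 arrays. The C57BL/6 spots lie at 1696.5 to 2124.5 for AK005187 and 358 to 701 for AK047380, and the DBA/1 spots lie at 15 to 27, close to the background of 12 to 15.

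The flags followed the signals. Both members were flagged well above background on all 4 C57BL/6 arrays and on none of the DBA/1 arrays. The weaker flag, for a signal that is positive and significant against the background, was also set on DBA/1 arrays 1 and 2 for AK005187 and on DBA/1 arrays 1, 2 and 4 for AK047380. No spot of either member was saturated or flagged as an outlier on any array.

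Negative control spots, whose sequences should bind no mouse RNA, give a second measure of background. In every C57BL/6 mouse both members were brighter than all negative control spots, whose highest processed intensity was 2.56 or less. On DBA/1 arrays 1 and 2, AK005187 was also above all of them, by 3.38 against a highest of 3.24 and by 2.18 against 2.10. On DBA/1 arrays 3 and 4 it was above 39.9% and 60.8% of them. On these arrays the software's background-subtracted signal of AK005187 was negative, at −0.81 and −0.73, so its place there carries little. AK047380 was above all negative control spots on DBA/1 arrays 2 and 4, above 77.8% on array 3 and above 34.5% on array 1. No negative control spot was well above background on any array.

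Within an array, AK005187 was brighter than 96.0%, 96.4%, 95.9% and 95.1% of the probe spots in the C57BL/6 mice, a place between 2193rd and 2962nd from the brightest of 59867 to 60880 spots. In the DBA/1 mice it was brighter than 24.3%, 27.6%, 11.5% and 14.8% of them. AK047380 was brighter than 88.9%, 90.3%, 89.7% and 90.1% in the C57BL/6 mice and than 8.12%, 42.3%, 22.7% and 29.2% in the DBA/1 mice. The places differed by at most 1.34 percentage points among the C57BL/6 mice for either member and by more among the DBA/1 mice, where the spots were near the background and their order among the dim probes carries little.

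The local background at the member spots was not part of the choice and was compared between the strains. At AK005187 it averaged 13.2 ± 0.957 units in DBA/1 and 13.1 ± 0.629 units in C57BL/6 (SD, n = 4 each), and an exact two-sided permutation test gave p = 1. At AK047380 it averaged 13.2 ± 0.5 units in DBA/1 and 14 ± 0.816 units in C57BL/6 (SD, n = 4 each), with p = 0.371 by the same exact test. Spots as far apart as 15 and 2124.5 units had backgrounds within 3 units of each other.

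The 6 spots nearest to each member were compared as well. A dim area of the slide cannot be told here from the mostly dimmer DBA/1 arrays, since the signals of these spots were not normalized. Around AK005187 the mean log2 of their median signals was 5.57 ± 0.061 in DBA/1 and 5.89 ± 0.196 in C57BL/6 (SD, n = 4 each), a difference of −0.32 with an exact permutation p = 0.0571. Around AK047380 it was 5.72 ± 0.278 in DBA/1 and 5.87 ± 0.139 in C57BL/6 (SD, n = 4 each), a difference of −0.16 with an exact permutation p = 0.4. These were 4 tests with those of the background, and the adjusted p-values were 0.229 and 0.533 for the surrounding spots and 1 and 0.533 for the background. The smallest p that 4 against 4 allows is 0.0286. The p around AK005187 passed the threshold without C57BL/6 mouse 2 (exact permutation p = 0.0286, difference −0.40). Within the slide columns, each with 1 array per strain, the surrounding spots differed by −0.20, −0.12, −0.41 and −0.55 around AK005187, lower in DBA/1 in 4 of 4, and by 0.28, −0.01, −0.55 and −0.34 around AK047380. An exact sign-flip test over the 4 columns gave p = 0.125 and p = 0.375, and p = 0.125 is the smallest that it allows. The part of this area in the members' difference was not tested.

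After a floor of 5 and quantile normalization, the log2 signal of AK005187 was 10.81, 10.77, 10.67 and 10.55 in C57BL/6 mice 1 to 4, a mean of 10.70 ± 0.11 (SD, n = 4). In each of the 4 DBA/1 mice it was at the floor, 2.32. The difference of the means was −8.38 on the log2 scale, and its size is set by the floor on the DBA/1 side. Taking for each DBA/1 array the highest value of any probe not well above background on it, AK005187 was at least 111-fold lower in DBA/1. With the lowest value of any probe well above background as the limit, it was at least 186-fold lower.

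The log2 signal of AK047380 was 8.39, 8.59, 8.52 and 8.79 in C57BL/6 mice 1 to 4, a mean of 8.58 ± 0.17 (SD, n = 4). In DBA/1 it was at the floor in mice 1, 3 and 4 and 3.01 in mouse 2, a mean of 2.50 ± 0.35 (SD, n = 4). The difference of the means was −6.08 on the log2 scale, and at least 25.5-fold by the first limit and at least 42.6-fold by the second. The limits of the DBA/1 arrays were 3.65 to 4.41 for the first and 2.82 to 3.32 for the second, on the normalized log2 scale.

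The strains did not overlap for either member. The lowest C57BL/6 value exceeded the highest DBA/1 value by 8.23 for AK005187 and by 5.38 for AK047380. The highest DBA/1 value was the floor for AK005187 and 3.01 for AK047380. Both were chosen on this difference, so the lack of overlap is a description. The share of all tested probes without overlap was not counted. Each column of the slide held 1 array of each strain, and within the 4 columns the difference was −8.48, −8.45, −8.35 and −8.23 for AK005187 and −6.07, −5.58, −6.20 and −6.47 for AK047380. Background correction by the normexp method with an offset of 50 made the differences smaller, at −4.84 for AK005187 and −2.85 for AK047380, which are folds below the bounds above.

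Of the 32897 tested probes, 1065 were lower in DBA/1, as the members were, by a fold of at least 2 and an unadjusted p under 0.05 (3.24%), and 931 (2.83%) with the p adjusted by the Benjamini-Hochberg method. The members were chosen by this contrast, so their place in it is a description. By size, AK005187 had the largest difference of all tested probes in this fit, and AK047380 the sixth largest and the fifth largest among those lower in DBA/1. Their pattern of flags, well above background on all 4 arrays of C57BL/6 and none of DBA/1, was shared by 413 tested probes (1.26%). The opposite pattern was found for 42 (0.128%). Among the 413, AK005187 had the highest mean C57BL/6 signal and AK047380 the next highest.

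**Figure D2:**
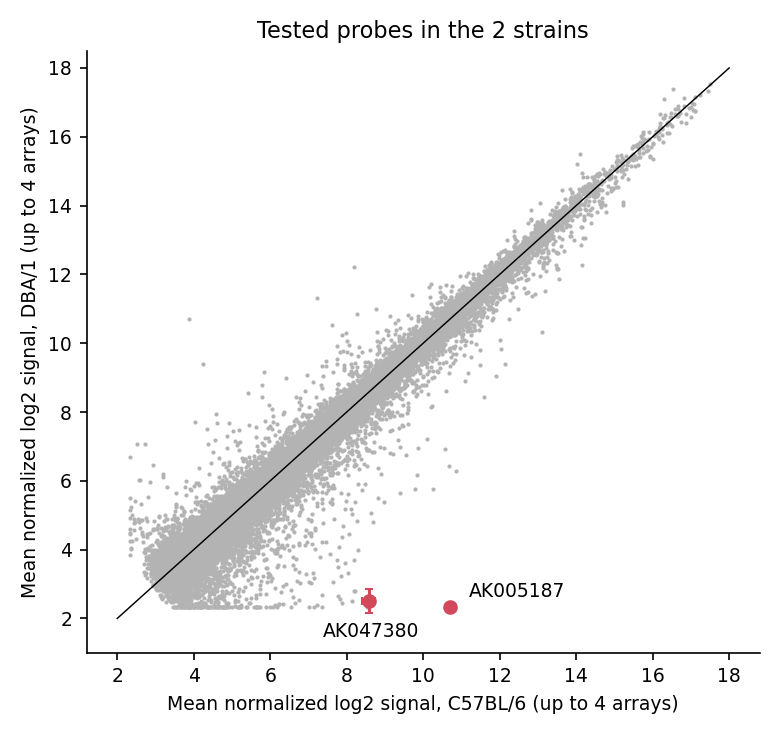
Mean normalized log2 signal of each tested probe (grey, 32897 probes) in C57BL/6 (x axis) against DBA/1 (y axis), up to 4 arrays per mean since outlier spots were left out, with the line of equality. The members (red, with SD bars over 4 mice, too short to see for AK005187) lie at 10.70 and 8.58 on the x axis and at or close to the floor of 2.32 on the y axis.

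The spread among the C57BL/6 mice can be set beside that of other probes. Of 28598 probes well above background on all 4 C57BL/6 arrays, 13.7% had a smaller SD there than AK005187 and 31.3% a smaller SD than AK047380. Among the probes within 0.5 log2 units of their own C57BL/6 mean, these shares were 22.6% of 1062 for AK005187 and 40.3% of 2282 for AK047380, where the median SD was 0.167 and 0.193. This measure uses the C57BL/6 mice alone. It is not free of the choice, since the study's criterion includes a p-value, which depends on the spread within each strain.

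The tables used here list 48 chromosome 6 probes, all chosen by the study on these arrays and one of their lists shortened. Of these, 32 were lower in DBA/1, with a median difference of −1.33, and 16 were higher. Lower probes also outnumbered higher ones among all tested probes. By limma, 1065 were lower and 355 higher by a fold of at least 2 and an unadjusted p under 0.05. On this chromosome the members lay apart from the others listed, since the third lowest difference was −2.84, for AK137713. The members were chosen by this difference, so their place is a description. Its size is also measured to the floor or close to it. Including the members, 7 of the 48 were not well above background on any DBA/1 array. Of all tested probes 413 (1.26%) were so, but those were not picked for a strain difference as the 48 were.

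There were 6 listed probes within 1 Mb of a member, 4 on the side of AK005187 toward lower coordinates and 2 beyond AK047380. No listed probe lies between the members. The study picked these probes for their difference between the strains on the same arrays, so that each one differs is no independent finding; the direction and size of each are given. By limma, 3 were higher and 3 lower in DBA/1 by a fold of at least 2 and an adjusted p under 0.05, as were 297 (0.903%) and 931 (2.83%) of all tested probes. For 1 of the 3 lower ones, 1700026J14Rik, that fold is measured to the floor, and its bound is under 2. The strains did not overlap for any of the 6, which, in probes picked for a difference, is no independent finding either. The share of such probes over all tested ones was not counted.

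The nearest neighbour went the other way from the member beside it. AK033721, an intergenic lncRNA of unknown role, starts 79 bases after the end of AK047380 on the same strand, at chr6:50203199-50206103. Its log2 signal was 8.50, 8.79, 8.25 and 8.07 in C57BL/6 mice 1 to 4 and 9.91, 9.78, 9.89 and 9.40 in DBA/1 mice 1 to 4. It was well above background on all 8 arrays. The difference was 1.34 (standard error 0.19), a fold change of 2.54, with an adjusted p = 0.00177 by limma. The listed probe intervals of AK047380 and AK033721 are 2860 bases apart, and the probes read different stretches of sequence, printed above.

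AK009658, a lncRNA listed as a natural antisense RNA of Dfna5, now Gsdme, lies 4965 bases beyond AK047380 on the plus strand, at chr6:50208085-50208566. Its log2 signal was 6.96, 6.98, 6.61 and 7.09 in C57BL/6 mice 1 to 4 and 4.07, 4.27, 4.74 and 4.54 in DBA/1 mice 1 to 4. The difference was −2.51 (standard error 0.19, adjusted p = 1.3e-05 by limma), in the direction of AK047380 and opposite to AK033721. Unlike AK047380, it stayed well above background on all 4 DBA/1 arrays. Along less than 9 kb, then, the listed probes read as very low, higher and lower in DBA/1.

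The neighbours of AK005187 were more distant, at 637 to 841 kb. The nearest of them was Zfp775, a zinc finger gene and the one mRNA among the 6, at chr6:48613180-48623227. Its log2 signal was 2.95, 3.48, 2.90 and 2.78 in C57BL/6 mice 1 to 4, where it was well above background on 1 array, and 4.28, 4.91, 4.19 and 5.05 in DBA/1 mice 1 to 4. The difference was 1.58 (standard error 0.24, adjusted p = 0.00237 by limma). Its C57BL/6 side was at background on 3 of 4 arrays, so the size is uncertain, and with normexp it was 0.34. The probe passed the filter on dim probes through the DBA/1 arrays, where it is high. It was also listed for this difference, so the adjusted p is no independent test.

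AK078703, an intergenic lncRNA at chr6:48544364-48545369, was lower in DBA/1 in every mouse. Its mean log2 signal was 7.38 ± 0.07 in C57BL/6 and 5.85 ± 0.19 in DBA/1 (SD, n = 4 each), and the difference was −1.53 (standard error 0.15, adjusted p = 9.2e-05 by limma). It was well above background on all 8 arrays.

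1700026J14Rik, listed as transcribed bidirectionally with the proton-pump gene Atp6v0e2, lies at chr6:48536582-48537474. It resembled the members in its flags, well above background on all 4 C57BL/6 arrays and on none of DBA/1. Its log2 signal was 4.74, 4.89, 4.50 and 5.05 in C57BL/6 mice 1 to 4 and the floor in all 4 DBA/1 mice. Since its C57BL/6 signal was dim, the bound was at least 1.86-fold lower in DBA/1, or 3.10-fold by the second limit. The adjusted p = 4.3e-06 by limma is for the difference to the floor and does not test the bound. The probe passed the filter on dim probes through the C57BL/6 arrays alone. The same flags thus stood for a far smaller bound than in AK005187.

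A listed lncRNA transcript that overlaps exons of Krba1, at chr6:48409199-48419545, was the most distant. Its mean log2 signal was 3.63 ± 0.27 in C57BL/6 and 4.66 ± 0.22 in DBA/1 (SD, n = 4 each), and the difference was 1.03 (standard error 0.18, adjusted p = 0.0063 by limma). It fell short of a fold change of 2 without C57BL/6 mouse 3, DBA/1 mouse 2 or DBA/1 mouse 4, at 0.89, 0.94 and 0.996 on the log2 scale. The same held with the median spot signal minus local background, at 0.96, and with normexp, at 0.28.

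**Figure D3:**
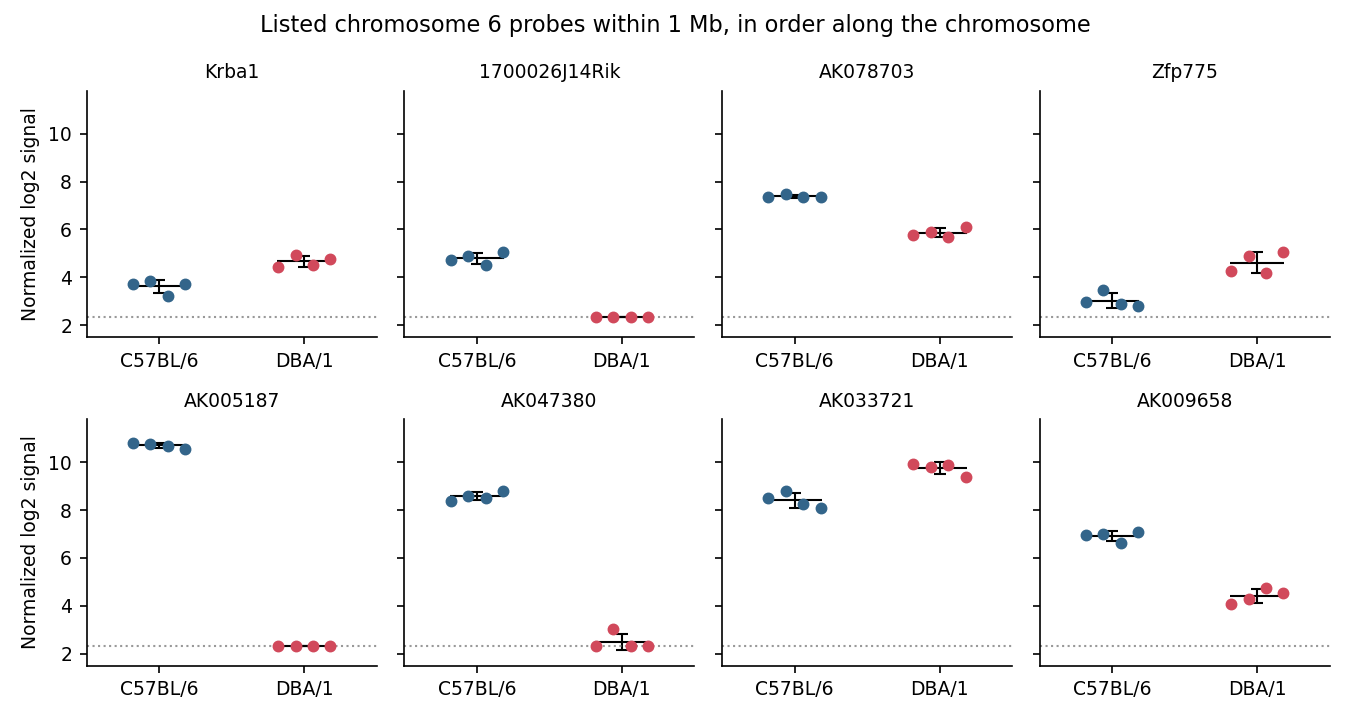
Normalized log2 signal of the members and of the 6 listed neighbours, panels in their order along chromosome 6, with each mouse as a point (blue C57BL/6, red DBA/1, 4 each, replicates 1 to 4 from left to right) and the mean with its SD in black. The dotted line is the floor at 2.32, where AK005187 and 1700026J14Rik lie in all 4 DBA/1 mice and AK047380 in 3 of them.

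**Figure D4:**
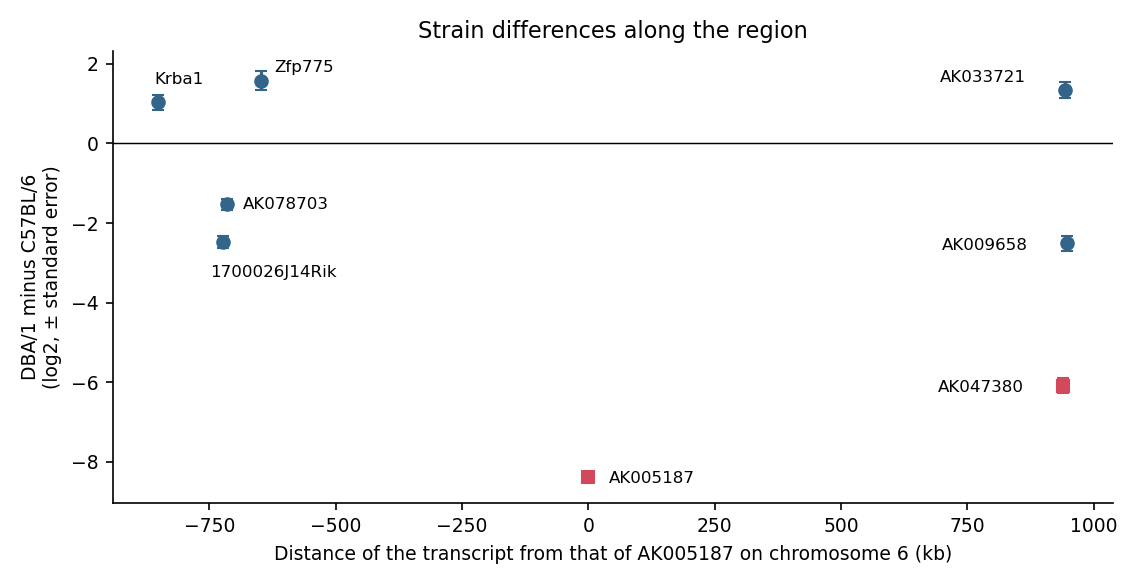
Difference between the strains (DBA/1 minus C57BL/6, log2, with the limma standard error) against the distance in kb between the start of the transcript and that of AK005187; red squares are the members and blue circles the neighbours. The members lie at −8.38 and −6.08 and the neighbours between −2.51 and 1.58, with AK033721 at 1.34 beside AK047380.

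The named probes most like each member over the 8 arrays were found by Pearson's r of the normalized log2 values, over 1101 named probes with 8 values. For AK005187 they were AK043180 on chromosome 16 (r = 0.99995), a pair of probes of 1500004A13Rik on chromosome 3 (r = 0.9998 and 0.9997), a transcript of Dnase1l2 on chromosome 17 (r = 0.9995) and Gltpd1, a lipid transfer protein gene on chromosome 4 (r = 0.9995). None of the 5 was well above background on any DBA/1 array. For AK047380 they were a transcript of Tmtc2 on chromosome 10 (r = 0.9994), 2610507I01Rik on chromosome 11 (r = 0.998), Trappc12, a gene of vesicle transport, on chromosome 12 (r = 0.998), XLOC_007856 on chromosome 14 (r = 0.997) and M13680 on chromosome 12 (r = 0.997). Of these, 2610507I01Rik and M13680 were well above background on all 4 DBA/1 arrays.

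The members' values had r = 0.996 with each other. With 8 arrays in 2 strains, such values mostly restate that a probe is high in one strain and low in the other: over 29906 other probes, 94 had r above 0.99 with AK005187 and 86 with AK047380. None of the 10 named ones lies on chromosome 6, which had 48 of the 1183 listed probes, so this says little.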

How the data were processed

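The authors' deposited scanner files hold spot intensities from Agilent Feature Extraction 11.0.1.1, not normalized between arrays, and their deposited table holds log2 values after quantile normalization. Values here were computed from the scanner intensities: a floor of 5, log2, and quantile normalization over 60804 probes, with outlier spots then left out. This order was chosen after the files were seen. Above the floor the result differed from the authors' log2 table by at most 0.0539. Control spots were left out of the fit. Probes well above background on at least 4 of 8 arrays and with values in both strains (32897) were compared with limma 3.58.1 (lmFit, eBayes; R 4.3.3; no block), and p-values were adjusted by Benjamini-Hochberg over all of them. The fit was tested on simulated data. Raw signals at the members were compared by exact permutation in Python 3.11.15 with numpy 2.4.6.

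Names, positions and probe sequences came from the study's supplementary lists (1183 probes), whose own fold changes and p-values were not used. One list was shortened, so no overlap was tested. Of 433 listed mRNA probes, 424 matched RefSeq (GRCm38.p6) by accession and 415 of these lay inside their gene, with a margin of 50 bases, so positions are GRCm38, counted from 1, and probe intervals are as listed. The named genes were the members, the listed chromosome 6 probes within 1 Mb and the 5 named tested probes most like each member. The members and lists were chosen with earlier results of these data known. Alternatives were other scaling, no floor, the authors' table, normexp on the median spot signal, median minus local background, outlier spots kept or left out earlier, other filters on dim probes, the methods' t-test, the replicate block and each mouse left out. The number of arrays limits the precision.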

Additional observations from a re-analysis of the deposited data

Results flagged for a closer look

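AK047380 in DBA/1 mouse 2 stood apart from the other DBA/1 mice, with a normalized log2 signal of 3.01 against 2.32 in the other 3, which lay at the floor. Without this mouse the difference between the strains was −6.28 in place of −6.08. The local background at the AK047380 spot of DBA/1 mouse 1 was 14 units against 13 in the other 3. In both cases the other 3 values were tied, at the floor or at a whole number, so any untied value would have stood apart, and the rate of about 1 in 20 groups that chance gives does not apply. By the same measure, the processed intensity of AK047380 without the floor did not stand apart in DBA/1 mouse 2. In all, 32 groups of 4 were checked.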

How the results depend on the processing

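The members stayed lower in DBA/1 under every alternative run. AK005187 differed by −8.20 with scaling of the floored intensity to the 75th percentile and with the median spot signal minus local background, −9.46 without a floor and −4.84 with normexp, and AK047380 by −6.83 without a floor, −5.80 with the median minus local background and −2.85 with normexp, which adds 50 to each intensity. The other settings moved each by less than the larger of its SDs in the strains (0.11 for AK005187 and 0.35 for AK047380). With each mouse left out, the difference was −8.47 to −8.33 for AK005187 and −6.28 to −5.94 for AK047380. The least folds were 186 and 42.6 with the other limit. Of the 6 neighbours, 6 passed a fold of 2 and the adjusted criterion, 2 with normexp (AK033721 and AK009658) and 5 with the median minus local background (all but Krba1). It was 4 of the 4 tested when all 8 arrays had to be well above background, and 5 to 6 with a mouse left out. All kept their direction, with adjusted p under 0.05 by the fit wherever tested. The study picked these probes for a strain difference on the same arrays, so this is no independent support. The counts of called probes, 1420 unadjusted and 1228 adjusted, became 358 and 321 with normexp, 598 and 568 with probes well above background on all 8 arrays, and 1345 and 896 with the methods' t-test. Without the filter they were 1499 and 924, and the unadjusted count was 3386 at a fold of 1.5 and 567 at a fold of 3. Left-out mice gave 1376 to 1627 and 1063 to 1341. The surrounding spots of AK005187 differed by −0.40 to −0.24 with a mouse left out. Dimness limits the members' values in DBA/1 to bounds.

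Mice given the same replicate number here shared a slide column, and their own labels carry other numbers. Their deviations from the strain means correlated at 0.381, 0.0143, 0.128 and 0.308, and not every sample correlated best with its own number. With the replicate block the counts were 1441 and 1264, the members' differences stayed at −8.38 and −6.08, and all 6 neighbours were called. The same block for the raw signals was added after the data were seen; its exact sign-flip test gave p = 1 and 0.25 for the background and 0.125 and 0.375 for the surrounding spots, and cannot go below 0.125.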
